A study of Homo sapiens with 4 samples.

Results

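The genes examined here belong to the programme of the transcription factor ATF4, together with amino acid synthesis enzymes, amino acid transporters and cytosolic tRNA synthetases. They are 40 genes chosen by symbol, all of them present among the 23362 genes of the expression table, and 37 had an FPKM (fragments per kilobase of gene, scaled to the number of mapped fragments) of at least 1 in at least 1 library. They were read in 4 classes, namely 12 regulators and effectors, 10 synthesis enzymes, 5 transporters, and 13 genes made up of 12 tRNA synthetases and XPOT, the exporter of tRNA from the nucleus. Poly(A) RNA came from MKN28, a human gastric adenocarcinoma cell line, as 1 library for each of 4 groups. All groups carried a doxycycline-inducible (tet-on) construct. Control cells carried luciferase (Luc), and the others carried HA-tagged KIAA1324 as wild type (WT), with the asparagines of its putative N-glycosylation sites replaced by glutamine (3NQ), or without its transmembrane domain (ΔTM). The KIAA1324 lines were made by retroviral infection and drug selection, and no source states whether doxycycline was added before RNA extraction, or the length of any such exposure.

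ATF4 is the effector of the integrated stress response. When eIF2 is phosphorylated, for example by the endoplasmic reticulum (ER) kinase PERK or the amino acid sensor GCN2, general translation falls while translation of the ATF4 mRNA rises, so that the level of that mRNA does not by itself report the protein. ATF4 then pairs with C/EBP family proteins on C/EBP-ATF response elements and drives genes for amino acid import, serine, glycine, proline and asparagine synthesis and tRNA charging, as well as the stress factor CHOP and feedback inhibitors of the response.

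The transgene itself, KIAA1324, reached an FPKM of 11185 in WT and 8197 in 3NQ against 2.86 in Luc. The library labelled ΔTM listed it at 0, and is therefore named by its label throughout. Each group has 1 library, so that differences are without replication and carry no p-value, and in bulk RNA fewer cells with a transcript and less of it per cell cannot be told apart. Differences of at least 1.5-fold on the log2(FPKM + 1) scale are named as called. Sets of 4 levels are FPKM values in the order Luc, WT, 3NQ and library labelled ΔTM, and sets of 3 log2 ratios are those of the last 3 to Luc. The median ratio to Luc of the 11769 genes passing the filter was between −0.06 and −0.0049 on the log2 scale. The epithelial markers EPCAM, CDH1, KRT8, KRT18, KRT19 and CLDN4 were at an FPKM of 174 or above in every library, MUC1 was between 8.69 and 13.97, and KRT20 was at 0.0448 or below. The mesenchymal markers VIM, COL1A2, COL3A1, PDGFRB and DCN were at 0.264 or below, but COL1A1 was between 12.1 and 15.3. The leukocyte markers CD3E, CD14 and PTPRC were at 0.153 or below, but CD68 was between 4.44 and 5.84. The endothelial markers VWF and CDH5 were at 0.363 or below, and PECAM1 was not listed. KRT8 and KRT18 were called lower in WT (−0.91 and −0.80), and their part in the results was not tested. Read depth is unknown, since the table holds no counts.

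Sequence elements near the start sites are given first, because they show which promoter windows of members hold the letters that ATF4 complexes are known to bind. The C/EBP-ATF response element was searched as TGATGNAA on both strands of RefSeq promoters, from 250 bases before to 50 after the start. Only the first promoter listed for each gene symbol was searched. Elements outside this window or at other starts were not searched, so that a gene without a match can still hold the element. Of 33 members matched to a promoter, 10 (30.3%) held it, compared to 1003 of 27305 RefSeq promoters (3.67%). The members were chosen as genes of the ATF4 programme, so that their share is a description and not a test. PSPH, SHMT2, PYCR1, GARS, LARS, SARS and YARS had no matched promoter. Within the classes, the element was found in 6 of 9 promoters of the tRNA synthetase class, in SLC3A2 and SLC7A1 among 5 transporters, in ASNS among 7 synthesis enzymes, and in CHAC1 among 12 regulators and effectors. The windows of 30 bases below are in GRCh37, located by an exact match of the RefSeq promoter, with the element in capitals and read on the strand given. The element lay upstream of the start in CHAC1, ASNS, AARS and IARS, and at or after it in the others. For SLC3A2 and MARS, the RefSeq start lies far inside the span that the expression table gives the gene, which begins at 62623518 and 57869228. Several of the other starts, such as those of CHAC1 and TARS, also lie inside the span, nearer to its edge.
CHAC1, chr15:41245449-41245478, minus strand: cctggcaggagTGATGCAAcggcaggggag
ASNS, chr7:97501770-97501799, minus strand: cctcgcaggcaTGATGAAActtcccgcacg
SLC3A2, chr11:62649191-62649220, minus strand: ggagcTGATGTAAggagtcctgcacattac
SLC7A1, chr13:30169800-30169829, minus strand: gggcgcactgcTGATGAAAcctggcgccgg
AARS, chr16:70323578-70323607, plus strand: tctaacttggcTGATGCAActgcgagaaaa
CARS, chr11:3078637-3078666, plus strand: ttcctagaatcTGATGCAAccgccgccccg
IARS, chr9:95055974-95056003, plus strand: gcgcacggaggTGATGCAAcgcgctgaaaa
MARS, chr12:57881836-57881865, minus strand: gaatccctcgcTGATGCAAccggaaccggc
NARS, chr18:55289036-55289065, minus strand: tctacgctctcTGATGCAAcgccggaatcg
TARS, chr5:33441062-33441091, minus strand: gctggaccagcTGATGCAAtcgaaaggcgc
All 6 synthetases carried the same 8 letters, TGATGCAA, which CHAC1 shares, while ASNS and SLC7A1 carried TGATGAAA and SLC3A2 carried TGATGTAA. A match to these letters is a description of the sequence and not a binding site shown here.

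Compared to Luc, the members called in WT were regulators and effectors. There, 4 of the 10 genes that passed the filter were called, all higher, compared to none of the 27 synthesis enzymes, transporters and tRNA genes. Over all genes passing the filter, 6.70% were called in WT (3.36% higher and 3.34% lower). A count of none among 27 genes is near this share. WARS (0.55) and ALDH18A1 (0.55) lay just below the threshold in WT. The called genes were PPP1R15A, DDIT3, CHAC1 and SESN2. In 3NQ, 3 regulators were called higher and 1 lower, with WARS the only other member called, compared to 4.34% of all genes (1.77% higher and 2.57% lower). DDIT3 was higher and DDIT4 lower in the library labelled ΔTM, with no other member called, compared to 3.11% of all genes (1.54% higher and 1.57% lower). The regulators and effectors had median log2 ratios of 0.34, 0.37 and 0.017. These 3 comparisons share the Luc library.

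**Figure D1:**
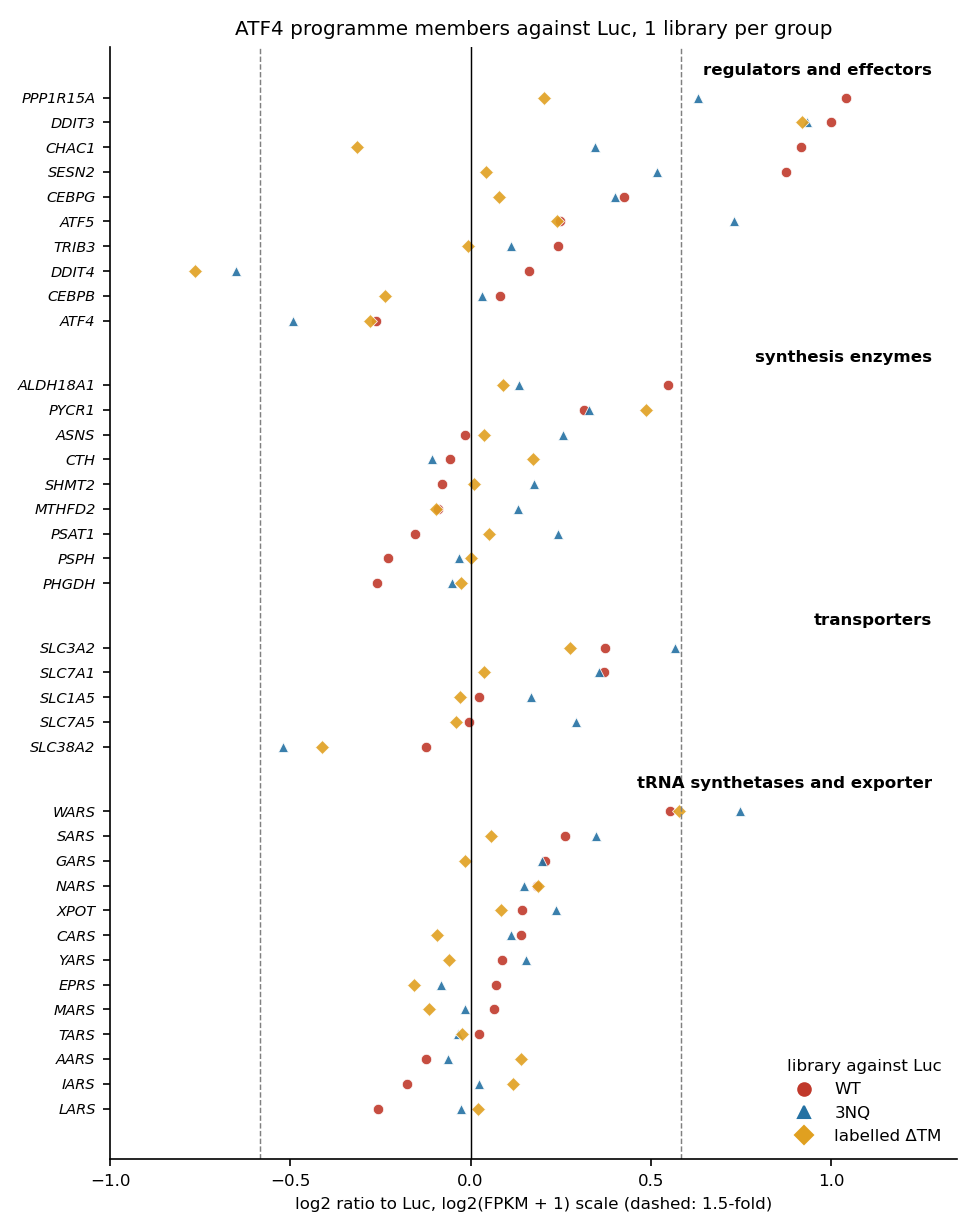
Log2 ratio to Luc (horizontal axis, log2(FPKM + 1) scale) of the 37 members that passed the filter, by class, with 1 point per library and dashed lines at 1.5-fold. Points beyond the dashed lines are found among the regulators and effectors and, for 3NQ, at WARS.

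ATF4 itself was the most abundant of the regulators. It measured 367, 306, 261 and 302. The Luc library was the highest, and the log2 ratio was −0.26, −0.49 and −0.28, none of which reached 1.5-fold. ATF5, a related factor whose mRNA is translated under the same control, measured 15.9, 19.1, 27.0 and 19.0. It stood out in 3NQ, with a log2 ratio of 0.73, while the ratios in WT (0.25) and in the library labelled ΔTM (0.24) lay below the threshold. ATF5 shares 1062 bases with NUP62 on the other strand, which ranged from 67.0 to 71.8 FPKM.

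DDIT3, which encodes the pro-apoptotic factor CHOP, was the single member called in all 3 comparisons to Luc. It measured 10.04, 21.1, 20.1 and 19.9. The 3 other libraries thus lay close together and apart from Luc, with log2 ratios of 1.00, 0.94 and 0.92. Counted from the highest ratio of all 11769 genes, DDIT3 stood at place 80 (WT), 67 (3NQ) and 79 (library labelled ΔTM). All 3 ratios rest on the same Luc value. DDIT3 is a minus-strand gene (GRCh37, chromosome 12, 57910371 to 57914300) and shares 982 bases with the end of MARS on the plus strand. The sources do not state that counting used strand, so that reads from the shared bases cannot be assigned to either gene. MARS ranged from 153 to 174 FPKM and was not called in any comparison.

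PPP1R15A, SESN2 and CHAC1 differed more between WT, 3NQ and the library labelled ΔTM than DDIT3 did. PPP1R15A encodes GADD34, the phosphatase subunit that reverses eIF2 phosphorylation, and measured 25.1, 52.8, 39.5 and 29.1. Log2 ratios of 1.04, 0.63 and 0.20 put it past the threshold in WT and 3NQ, although with a pseudocount of 5 the ratio in 3NQ was 0.56 and below the threshold. SESN2 encodes sestrin 2, a leucine sensor that restrains mTORC1 and is also a p53 target. It measured 8.57, 16.6, 12.7 and 8.86, with ratios of 0.88, 0.52 and 0.043. CHAC1, a glutathione-degrading enzyme induced through ATF4 and ATF3, measured 11.8, 23.1, 15.2 and 9.26, with ratios of 0.92, 0.35 and −0.32. All 3 genes were highest in WT, lower in 3NQ and lower again in the library labelled ΔTM, where their ratios to Luc were all within 1.5-fold.

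**Figure D2:**
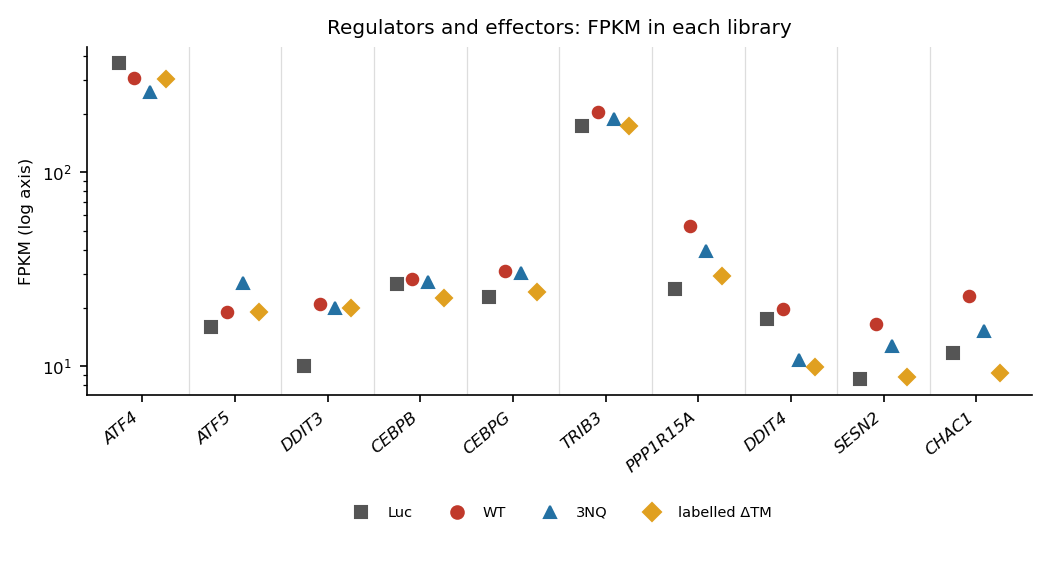
FPKM (log axis) of the 10 regulators and effectors that passed the filter, with 1 point for each of the 4 libraries and no error bars because there is 1 library per group. DDIT3 is near 20 in every library but Luc (10.04), whereas PPP1R15A, SESN2 and CHAC1 step down from WT to 3NQ to the library labelled ΔTM.

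DDIT4 encodes REDD1, an inhibitor of mTORC1 that hypoxia, glucocorticoids and p53 also induce. It measured 17.6, 19.8, 10.8 and 9.92. Luc and WT lay together above 3NQ and the library labelled ΔTM. The log2 ratios were 0.16, −0.65 and −0.77, and with a pseudocount of 5 the ratio in 3NQ (−0.51) was within 1.5-fold. In these latter libraries, DDIT4 was thus lower than Luc where DDIT3 was higher.

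The remaining regulators stayed within 1.5-fold of Luc. TRIB3, a pseudokinase that binds ATF4 and limits its activity, measured 174, 206, 188 and 173. CEBPG, a dimerization partner of ATF4, had 22.8, 31.0, 30.4 and 24.1, with ratios of 0.43, 0.40 and 0.08. CEBPB, another C/EBP factor, had 26.6, 28.2, 27.2 and 22.4, with ratios of 0.082, 0.031 and −0.24. STC2, a secreted glycoprotein, was at 0.49 or below, and the lipoprotein receptor gene VLDLR at 0.0252 or below, so that neither passed the filter.

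The order WT above 3NQ above the library labelled ΔTM, which was chosen for counting after the values were seen, held for 8 of the 10 regulators and effectors and for 27.4% of all genes passing the filter. It held for 6 of 10 under 2 other scalings, by a median of ratios and by an upper quartile, where DDIT3 and CEBPG no longer followed it, and for 22.1% and 21.7% of all genes there. Among the other classes, it held for 1 of 9 synthesis enzymes, 1 of 5 transporters and 4 of 13 tRNA genes as deposited. Under the other scalings, it held for 0 of 5 transporters, and for 2 (median of ratios) and 3 (upper quartile) of 13 tRNA genes.

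The comparison of WT with 3NQ sets KIAA1324 with its putative N-glycosylation sites beside KIAA1324 without them, and does not use Luc. WT and 3NQ are separate lines with 1 library each, and KIAA1324 was at 11185 and 8197 FPKM. An effect of the loss of the sites therefore cannot be told apart from one of line, library or transgene level. Only DDIT4 was called, 0.81 higher in WT on the log2 scale, compared to 4.47% of all genes (2.89% higher and 1.58% lower). CHAC1 was 0.57 higher in WT, just below the threshold, and reached it (0.60) with a pseudocount of 0.1. ATF5 was the lowest of all members, at −0.48. The median was 0.18 for the regulators and effectors, −0.21 for the synthesis enzymes, −0.14 for the transporters and −0.061 for the tRNA genes, compared to 0.025 for all genes. Compared to the library labelled ΔTM, a comparison added after the values were seen, 4 members were higher in WT and none lower, against 7.16% of all genes (4.25% higher and 2.91% lower). They were CHAC1 (1.23), DDIT4 (0.93), PPP1R15A (0.84) and SESN2 (0.83), and DDIT3 differed by 0.079.

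None of the 9 synthesis enzymes that passed the filter was called against Luc in any library, and none between WT and 3NQ or the library labelled ΔTM. In these comparisons, between 3.11% and 7.16% of all genes were called, so that a count of 0 among 9 genes is near these shares. The genes of serine and one-carbon synthesis were already abundant in Luc. PHGDH, the first enzyme of serine synthesis, measured 99.5, 82.9, 95.9 and 97.7. PSAT1, the aminotransferase of the next step, had 90.9, 81.6, 108 and 94.1. MTHFD2, the mitochondrial folate enzyme, had the highest level of the class, from 357 to 418. ASNS, which makes asparagine and holds the element shown above, had 104, 102, 124 and 106, with log2 ratios of −0.014, 0.26 and 0.038.

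ASNS, PSAT1, PHGDH, PSPH, SHMT2 and MTHFD2 were each lower in WT than in both Luc and 3NQ, by small amounts, a position that 33.2% of all genes also had. ALDH18A1 and PYCR1, which make proline from glutamate, differed from these. ALDH18A1 measured 31.1, 46.0, 34.3 and 33.2, and its ratio of 0.55 in WT was the highest of the class there. PYCR1 had 50.4, 62.9, 63.5 and 71.1, with a ratio of up to 0.49. CTH, which makes cysteine from cystathionine, was at 2.83 or below, and CBS, the step before it, at 0.216 or below and listed at 0 in Luc.

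Among the synthesis enzymes and transporters, SLC3A2 had the highest ratio in 3NQ. SLC3A2, the heavy chain that SLC7A5 and SLC7A11 need at the cell surface, measured 218, 283, 324 and 265. Its log2 ratio in 3NQ was 0.57, below 1.5-fold as deposited and above it under the median-of-ratios (0.61) and upper-quartile (0.60) scalings. SLC7A5, the leucine transporter that pairs with it, had 97.8, 97.6, 120.1 and 95.1. SLC38A2, a sodium-coupled neutral amino acid transporter that amino acid shortage induces, went the other way, with 211, 194, 147 and 158 and a ratio of −0.52 in 3NQ.

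SLC1A5, a glutamine transporter, had an FPKM between 210.2 and 241, and SLC7A1, a cationic amino acid transporter, between 52.2 and 67.8. The median log2 ratio of the 5 transporters was 0.024 in WT and 0.29 in 3NQ, and it was −0.029 in the library labelled ΔTM, where it turned to 0.038 under median-of-ratios and 0.03 under upper-quartile scaling.

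**Figure D3:**
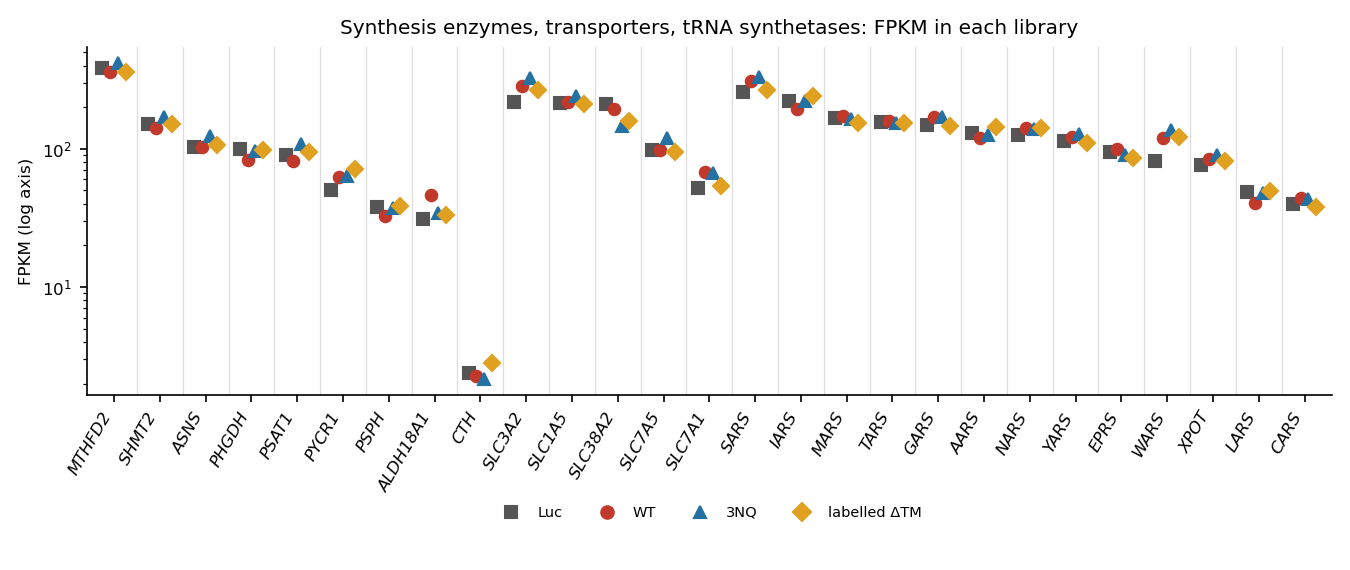
FPKM (log axis) of the 27 synthesis enzymes, transporters, tRNA synthetases and XPOT that passed the filter, ordered by their level in Luc within each class, with 1 point for each of the 4 libraries. The 4 points of most genes lie close together, and WARS is lower in Luc (81.4) than in the other libraries.

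The tRNA synthetases attach amino acids to their tRNAs. The ratio of the highest to the lowest library had a median of 1.18 over these 13 genes, compared to 1.21 for the synthesis enzymes, 1.30 for the transporters and 1.82 for the regulators and effectors. It was at least 1.5 for 1 tRNA gene, for 0 synthesis enzymes and transporters and for 6 regulators and effectors. This ratio is of FPKM without a pseudocount, unlike the scale used for calls, and the share of all genes that reach it was not computed. The 10 regulators and effectors were also less abundant, with a median level of 20.2 FPKM in Luc against 124.9 for the tRNA genes, and the part of this in the difference was not tested. TARS, the threonine enzyme, varied least, at 156, 159, 152 and 153. SARS, the serine enzyme, was the most abundant, with 257, 308, 328 and 268.

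WARS, the tryptophan enzyme, which interferon also induces, was the exception. It measured 81.4, 120.0, 138 and 122. All 3 other libraries were above Luc, with log2 ratios of 0.55, 0.75 and 0.58, of which only that in 3NQ was called as deposited. Under median-of-ratios and upper-quartile scaling, WARS was called in the library labelled ΔTM as well (0.65 and 0.64). No C/EBP-ATF element was found in its promoter window. WARS shares 388 bases with WDR25 on the other strand, which was at 2.89 FPKM or below.

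Among the 10 members with the element in the window, CHAC1 was the single gene called in WT and none was called in 3NQ or the library labelled ΔTM. Among the 20 members that passed the filter and had a promoter window without it, those called numbered 3 (WT), 5 (3NQ) and 2 (library labelled ΔTM), where 6.70%, 4.34% and 3.11% of all genes were called. These 20 can hold the element outside the window. In WT, the median log2 ratio was 0.10 with and 0.11 without the element in the window.

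Other genes of the pathway were followed through lists. These lists, like the members, were chosen with earlier results of these data known, so that their shares are descriptions and not tests. Of 15 kinases and factors of eIF2, EIF2AK3, which encodes PERK, was the single gene called in WT (0.78), which is 6.67% of the list against 6.70% of all genes. None was called in 3NQ or the library labelled ΔTM. EIF2AK3 measured 10.7, 19.1, 15.1 and 11.5, the same order as PPP1R15A and SESN2. The other eIF2 kinases, EIF2AK1, EIF2AK2 and EIF2AK4, lay between −0.13 and 0.12 in all 3 comparisons to Luc.

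Of 20 other ATF4-responsive genes, 18 passed the filter, and 5 were higher and 1 lower in WT, against 3.36% and 3.34% of all genes. SQSTM1, which encodes the autophagy receptor p62 and is also an NRF2 target, measured 175, 495, 257 and 200.0, with a log2 ratio of 1.49 in WT. ATF3, a stress-induced factor, had 12.8, 21.4, 16.3 and 11.3, with a ratio in WT of 0.70, or of 0.57 and uncalled with a pseudocount of 5. KLHL24 had 6.96, 11.9, 6.01 and 4.20, with ratios of 0.70, −0.18 and −0.62, and the call in WT was lost with a pseudocount of 5 (0.50). GDF15 (0.64) and INHBE (1.09) were the other genes higher in WT and BCAT1 (−0.67) the lower one, and these 3 are named to complete the count after their values were seen. GDF15 measured 115, 179, 139 and 121. INHBE had only 0.68, 2.57, 1.69 and 0.69, and BCAT1 1.58, 0.63, 1.20 and 1.36. Both are near the minimum FPKM of 1, and their ratios with other pseudocounts were not computed.

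In 3NQ, the genes called of this list were SLC7A11 and INHBE, which is 11.1% of the 18 that passed, against 4.34% of all genes. INHBE was at only 1.69 FPKM there. SLC7A11, the cystine carrier, measured 11.5, 15.4, 19.4 and 11.8, with a ratio of 0.70 in 3NQ, or of 0.56 and uncalled with a pseudocount of 5. SQSTM1 was at 0.55 in 3NQ and reached the threshold under median-of-ratios scaling (0.60). NUPR1, a stress-induced chromatin protein, had 6.70, 7.46, 4.26 and 5.31 and was 0.69 higher in WT than in 3NQ, or 0.43 and uncalled with a pseudocount of 5. KLHL24 alone was called in the library labelled ΔTM, as lower, which is 5.56% of these 18 against 3.11% of all genes. Median-of-ratios scaling moved it to −0.56, inside the threshold.

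None of 11 further cytosolic synthetases and their scaffold proteins was called against Luc. Over all genes, 6.70% (WT), 4.34% (3NQ) and 3.11% (library labelled ΔTM) were called. Of 17 mitochondrial synthetases, CARS2 alone was called against Luc, in 3NQ, which is 5.88% of the list against 4.34% of all genes. Its FPKM there was 65.1, compared to 24.2 in Luc, 24.0 in WT and 23.2 in the library labelled ΔTM. Of 13 other amino acid enzymes and carriers passing the filter, 3 were called in WT, which is 23.1% against 6.70% of all genes. SHMT1 (−0.74) and MTHFD1 (−0.71), the cytosolic folate enzymes, were lower in WT. SLC1A4, a carrier of alanine, serine and cysteine, was higher (0.64). SLC1A4 measured 2.49, 4.45, 5.26 and 3.00, and was called in 3NQ as well (0.84). With a pseudocount of 5, both calls of SLC1A4 were lost (0.34 in WT and 0.45 in 3NQ). SHMT1 was lower in 3NQ (−0.60), a call that median-of-ratios scaling (−0.55) and a pseudocount of 5 (−0.55) removed. As deposited, SLC1A4 and SHMT1 made up 15.4% of this list in 3NQ, against 4.34% of all genes.

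Targets of XBP1 and ATF6, the other branches of the unfolded protein response, differed between the libraries in another way. Of 12 such genes, those called numbered 4 in WT and 10 in each of the other libraries, all higher than Luc, against 3.36% (WT), 1.77% (3NQ) and 1.54% (library labelled ΔTM) of all genes. Between WT and 3NQ, 7 were lower in WT, against 1.58% of all genes. This list too was chosen with earlier results of these data known, so that its shares are not a test. HSPA5, which encodes the ER chaperone GRP78, measured 318, 521, 1114 and 1028. SDF2L1 had 36.1, 43.6, 92.0 and 127, CRELD2 had 14.8, 14.8, 35.4 and 51.5, and MANF, a secreted ER protein, had 18.1, 27.2, 45.7 and 61.5. These genes were nearer to Luc in WT than in the remaining libraries. DNAJB9, an ER co-chaperone, had 13.0, 29.8, 39.2 and 25.5, and its ratio of 1.14 in WT was above that in the library labelled ΔTM (0.92). HERPUD1, an ER degradation factor named here after its values were seen, had 41.2, 90.9, 111.9 and 91.8, with ratios of 1.12, 1.42 and 1.14. The list had median log2 ratios of 0.45, 1.24 and 1.23. PPP1R15A, SESN2 and CHAC1 were highest in WT, where most of these ER genes were not called. The difference between the lists was not tested.

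The ER stress element was searched on both strands as CCAAT and CCACG with 9 bases between them. It was in 4 of the 12 targets' promoters (33.3%), those of HSPA5, HSP90B1, CRELD2 and XBP1. It was in none of the 33 members' promoters and in 0.0806% of all RefSeq promoters. The 12 genes were chosen as targets of XBP1 and ATF6, so that their share is a description and not a test. Of the same 12 promoters, that of HERPUD1 held the C/EBP-ATF element (8.33%). The ER stress element is shown for a pair of the genes that hold it, to set beside the C/EBP-ATF element.
HSPA5, chr9:128003664-128003693, minus strand: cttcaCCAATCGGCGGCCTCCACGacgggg
CRELD2, chr22:50312197-50312226, minus strand: tatggcCCAATCCGAGTTCGCCACGagagg

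**Figure D4:**
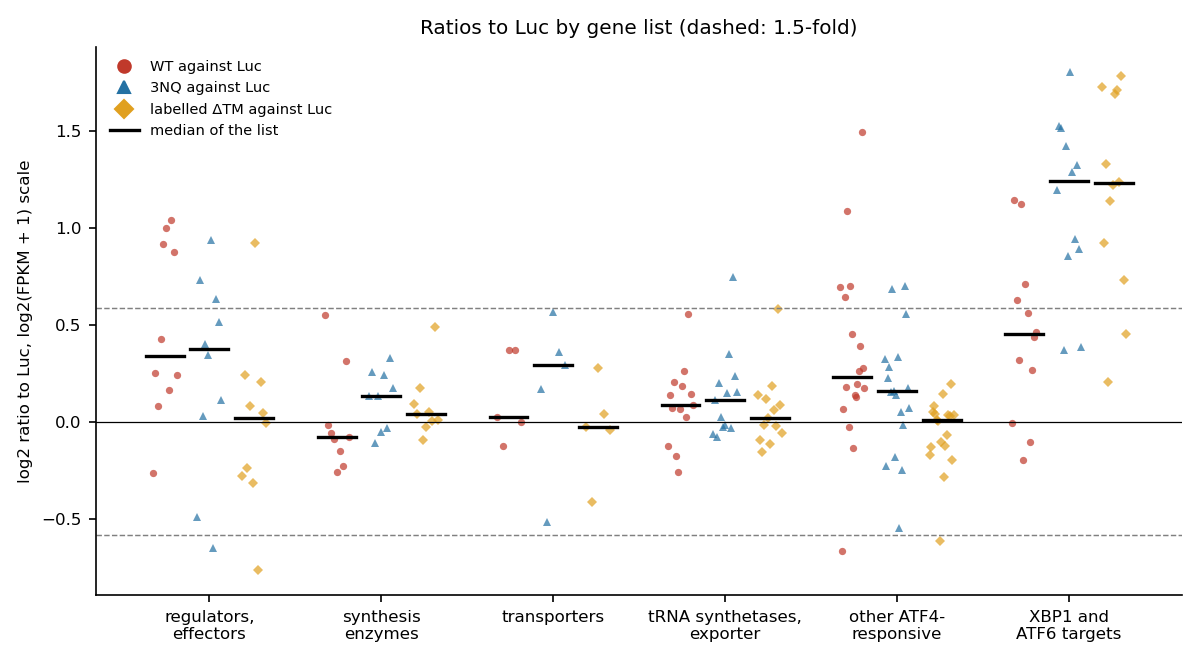
Log2 ratio to Luc (vertical axis, log2(FPKM + 1) scale) of each gene that passed the filter, for the 4 classes, other ATF4-responsive genes, and XBP1 and ATF6 targets, with a bar at each list's median and dashed lines at 1.5-fold. XBP1 and ATF6 targets have medians of 1.24 (3NQ) and 1.23 (library labelled ΔTM), whereas the medians of the synthesis enzymes lie between −0.079 and 0.13.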

How the data were processed

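Poly(A) RNA was sequenced from 4 libraries, 1 per group. The authors aligned filtered reads with TopHat to GRCh37, and Cufflinks (version 2.1.1 in the submitters' processing notes) gave an FPKM for each Ensembl gene, with non-coding regions masked and corrections made for bias and for reads with several positions. The deposited FPKM values are scaled for library size and gene length, and hold no counts or p-values, so that a gene listed at 0 can be a failed estimate. Of the entries, 166 repeat a symbol, none of them a member, and the entry with the higher mean was taken.

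Log2 ratios of FPKM with a pseudocount of 1 were computed for genes that reached an FPKM of 1 in any library (Python 3.11.15, numpy 2.4.6, pandas 2.3.3), and a gene was called at 1.5-fold, since the authors' Cuffdiff test needs reads. The steps were run on simulated data with changes larger than 1.5-fold. That run checks the code, and not how reliable calls near the threshold are. The members and lists were chosen with earlier results of these data known. Members called, and those central to the pathway, were named with all values, as were at most 5 genes per further list that reached an FPKM of 5. Alternatives were pseudocounts of 0.1 and 5, no filter, a minimum FPKM of 5, median-of-ratios and upper-quartile scaling, and a 2-fold threshold. Comparison with the library labelled ΔTM, and a filter without it, were added after seeing the data. Promoters are from RefSeq (GRCh38.p14), and figures were drawn with matplotlib 3.10.9.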

Additional observations from a re-analysis of the deposited data

How the results depend on the processing

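The class medians moved by less than 0.1 on the log2 scale under every alternative run, and no called value of a named gene changed sign. With a 2-fold threshold, the members called against Luc numbered 1 (WT), 0 (3NQ) and 0 (library labelled ΔTM), with 0 between WT and 3NQ and 1 between WT and the library labelled ΔTM, and the counts over all genes in this order were 146, 119, 122, 107 and 172. With a pseudocount of 0.1, 2 members were called between WT and 3NQ, and the counts over all genes were 1259, 960, 720, 932 and 1331. With a pseudocount of 5, 3 members were called in 3NQ, and the counts over all genes were 275, 190, 144, 167 and 318. With an FPKM of at least 5, the counts over all genes were 323 in 3NQ, 223 in the library labelled ΔTM and 334 between WT and 3NQ. As deposited, they were 789, 511, 366, 526 and 843. Under median-of-ratios scaling, calls against Luc for the library labelled ΔTM numbered 223 as higher and 145 as lower, in place of 181 and 185, between WT and 3NQ they were 299 and 205, in place of 340 and 186, and between WT and the library labelled ΔTM 395 and 435, in place of 500 and 343. Leaving the library labelled ΔTM out of the filter changed no call of a named gene and moved no count by over 1.5 times. No paired analysis was possible because each group has 1 library. Unknown depth limits the low genes most, such as CTH, SLC1A4 and INHBE.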
